A study of Macaca mulatta with 102 samples.

Results

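Blood T cells of rhesus macaques transplanted under tacrolimus and methotrexate (group label Tac.Mtx.F, 3 arrays) were compared with those of macaques transplanted without prophylaxis (group label NoRx.F, 4 arrays). The arrays were chosen by these labels alone, and they are 7 of the 102 arrays of the series. Nonhuman primates of the series received allogeneic or autologous haematopoietic cell transplants, the allogeneic recipients with different regimens against graft-versus-host disease (GVHD), and CD3-positive T cells were sorted by flow cytometry from blood and profiled on Affymetrix arrays with a labelling kit that starts at the 3' end. The arrays of the 66 animals fall into 16 labelled groups, and 46 arrays carry the label Healthy.Control. Some of these are of animals that also have an array after transplantation, R.53 of NoRx.F among them. The healthy reference is therefore not a fully separate set of animals. The Tac.Mtx.F arrays are of R.21 on day 26, R.19 on day 49 and R.20 on day 67 after transplantation, all in labelled batch 3. The NoRx.F arrays are of R.50 on day 6, R.51 on day 7 and R.52 on day 8, in batch 1, and of R.53 on day 12, in batch 2. Each of the 7 arrays is of a different animal. The same 3 tacrolimus and methotrexate recipients also have an array from day 14, in batch 3 (group label Tac.Mtx.D14). The labels do not explain the suffix F, and doses, donor matching, GVHD grade, and whether either drug was still being given at sampling are not in the labels used here. No day and no batch holds both groups, so the regimen, the time since transplantation and the batch cannot be told apart.

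Tacrolimus binds an FKBP immunophilin and blocks calcineurin, the phosphatase that sends NFAT into the nucleus after the T cell receptor signals through calcium, and so dampens cytokine and activation genes. Methotrexate blocks dihydrofolate reductase and related folate enzymes and starves dividing lymphocytes of nucleotides. Acute GVHD begins when donor T cells recognise host antigens, leave the resting state, divide and acquire effector functions. The gene groups below follow that order, from division and nucleotide supply through calcineurin signalling and activation to receptors, effector functions and the resting programme.

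Values are log2 signal intensities normalised by RMA, and each difference is Tac.Mtx.F minus NoRx.F on that log2 scale with its standard error. The standard error and adjusted p rest on the spread pooled over all 101 fitted arrays, 45 of them healthy. They can understate the spread where the compared groups vary more than healthy animals. The median value of an array was 5.13 to 5.15 in Tac.Mtx.F and 5.21 to 5.35 in NoRx.F, against 5.13 to 5.35 over the series, and R.51 had the highest of all. The 3'-to-5' signal difference of the actin control, a measure of RNA quality, was 0.12 to 1.03 on the 7 arrays, below the 2.5 that 6 arrays of the series exceeded. The T cell label was checked with 9 core T cell genes: the mean level of these genes, relative to healthy T cells, was 0.07 to 0.13 in Tac.Mtx.F and -0.24 to -0.03 in NoRx.F. The number of arrays limits the precision of every value. A difference between bulk samples can come from fewer cells of a type or from less RNA per cell, and these cannot be told apart.

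T cells of the tacrolimus and methotrexate recipients had lower transcripts of cell division and DNA replication, of the inhibitory receptors LAG3 and HAVCR2, of the ectonucleotidase ENTPD1 and of the transcription factor IRF8. They had higher transcripts of TCF7, KLF3 and KLF7, which belong to the resting and central memory list, of the immediate early genes FOS, JUNB and DUSP1, and of the calcium sensor STIM2. In all, 1644 of 31710 probe sets (5.18%) passed an adjusted p of 0.05 in limma, of which 1029 (3.25%) were higher and 615 (1.94%) lower in Tac.Mtx.F. At an unadjusted p of 0.05 there were 6448 (20.3%). With each gene represented by its brightest probe set, 671 of 10718 genes (6.26%) passed, 461 higher (4.3%) and 210 lower (1.96%), and the median difference of all genes was -0.0042. The deposited values did not overlap between the groups for 1269 genes with every Tac.Mtx.F array above (11.8%) and for 921 with every Tac.Mtx.F array below (8.59%). The exact two-sided permutation p of such a gene is 0.0571, the smallest that 3 against 4 arrays allow, so the adjusted p of the fit over all probe sets is given for single genes. The count of 1644 rested on single arrays: it was 754 without R.19, 821 without R.21, 1089 without R.20, 1004 without R.51 and 2798 without R.53. It was 1009 without R.50 and R.52, the NoRx.F arrays with the most monocyte signal, and 602 when only the 7 arrays were fitted with no batch term.

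**Figure D1:**
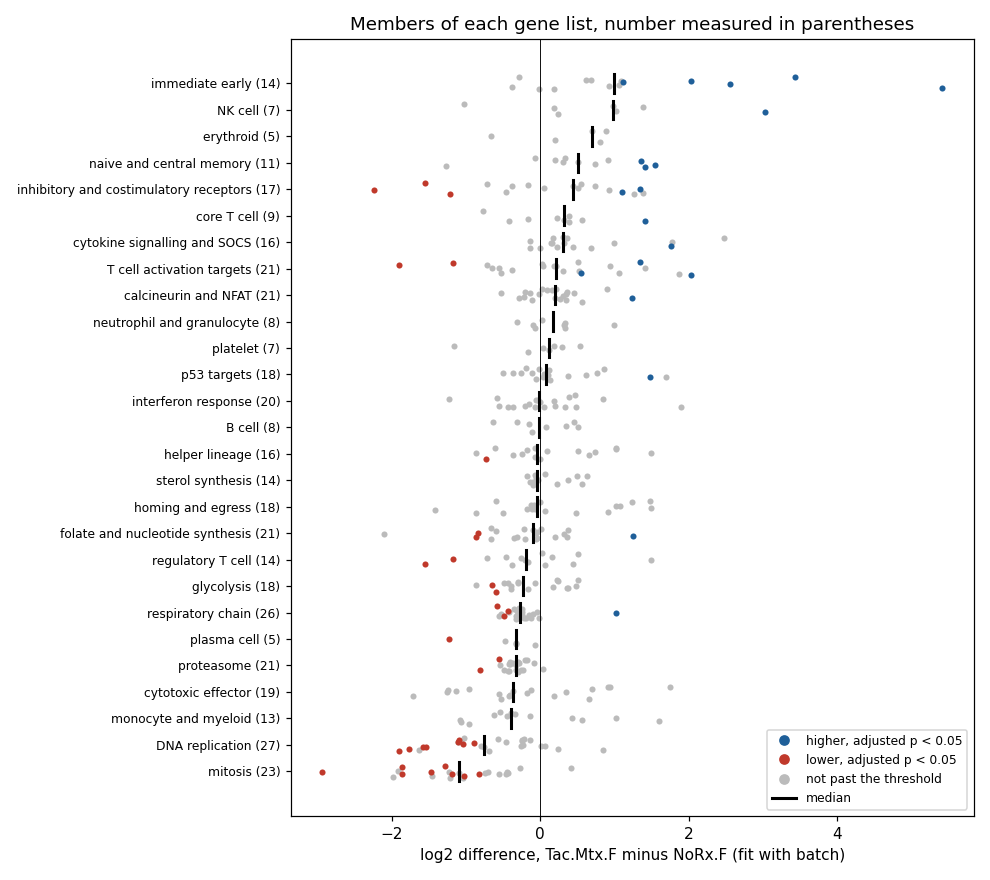
Log2 differences Tac.Mtx.F minus NoRx.F (x axis) of the measured members of 27 gene lists (y axis), one point per gene, with a black tick at each list's median; blue points are genes higher and red points genes lower past the adjusted threshold, and grey points are not past it. The mitosis and DNA replication lists lie mostly below 0, with medians of -1.09 and -0.76, and the immediate early list lies mostly above 0, with a median of 1.00.

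Transcripts of mitosis were lower in the tacrolimus and methotrexate recipients. Of 23 measured genes of chromosome segregation and mitotic entry, 8 fell and 0 rose, 22 had a difference below 0, and the median was -1.09, against -0.0042 for all genes and 1.96% of all genes that fell. CCNB2, a cyclin that drives entry into mitosis, fell most of all named genes. Its values were 11.15, 10.82, 9.65 and 9.47 in NoRx.F (R.50, R.52, R.53 and R.51) and 8.53, 8.31 and 5.79 in Tac.Mtx.F (R.21, R.20 and R.19), a difference of -2.94 ± 0.69 (SE, limma adjusted p = 0.00504). The groups did not overlap, and R.19 was the lowest by a wide margin. In 45 healthy animals CCNB2 ran from 4.47 through a median of 5.68 to 6.72, so R.20 and R.21 stayed above every healthy animal and R.19 lay inside the healthy range. MKI67, the proliferation antigen Ki-67, was at 9.998, 9.72, 9.21 and 8.91 in NoRx.F (R.50, R.52, R.53 and R.51) and at 8.42, 8.37 and 6.65 in Tac.Mtx.F (R.21, R.20 and R.19), a fall of -1.86 ± 0.55 (adjusted p = 0.0298). Again the groups did not overlap and R.19 was lowest. The healthy range of MKI67 was 5.45 to 7.27.

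R.19 was also lowest for the mitotic genes CCNB1, CENPF, CENPA and FOXM1, which fell too. CCNB1, the partner of the mitotic kinase CDK1, was 8.08 to 10.41 in NoRx.F and 6.85 to 7.77 in Tac.Mtx.F, a difference of -1.86 ± 0.41 (adjusted p = 0.00242). CENPF, a kinetochore protein, was 9.73 to 10.88 against 8.67 to 9.18, a difference of -1.47 ± 0.41 (adjusted p = 0.0198). CENPA, the histone variant that marks centromeres, was 7.43 to 8.15 against 6.13 to 6.98, a difference of -1.28 ± 0.31 (adjusted p = 0.00689). Each of the 3 genes separated the groups without overlap. FOXM1, the transcription factor of the G2 and M phases, was 6.64 to 7.37 against 5.07 to 6.53, a difference of -1.19 ± 0.36 (adjusted p = 0.0373). CDKN3, a phosphatase of cyclin-dependent kinases that is not on the list, fell by 2.00 ± 0.51 on the log2 scale (adjusted p = 0.0104). TOP2A, the topoisomerase that untangles chromosomes, had a difference of -1.91 ± 0.74 that did not pass (adjusted p = 0.111), and its groups overlapped.

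The mean level of the mitosis list, set to 0 in healthy animals, was 2.34, 2.31, 1.82 and 1.32 in NoRx.F (R.52, R.50, R.53 and R.51) and 1.40, 1.32 and 0.20 in Tac.Mtx.F (R.20, R.21 and R.19). The groups overlapped here: R.20 lay above R.51, while R.19 lay within the healthy range of -0.50 to 0.73. The count of 8 falling genes fell to 1 without R.19, to 5 without R.21 and to 4 without R.50 or without R.52. It was 1 without both R.50 and R.52, 2 when only the 7 arrays were fitted and 4 with batches 1 to 3 only, with list medians between -1.35 and -0.72 over all settings. The monocyte and myeloid marker level was also highest in R.50 (1.80) and R.52 (1.85), against 0.55 in R.53 and -0.33 in R.51 and 0.29 to 1.00 in Tac.Mtx.F, and with this level as a covariate 8 mitosis genes fell and the median was -1.08.

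Transcripts of DNA replication fell alongside. Of 27 measured genes 8 fell and 0 rose, beside 1.96% and 4.3% of all genes. For 23 of them the difference was below 0, and the median was -0.76. The falling genes included MCM2, MCM3, MCM4 and MCM5, subunits of the helicase that is loaded at replication origins. MCM4 was at 11.49, 11.27, 10.02 and 9.82 in NoRx.F (R.50, R.52, R.51 and R.53) and at 9.37, 9.30 and 7.62 in Tac.Mtx.F (R.20, R.21 and R.19), a difference of -1.90 ± 0.36 (adjusted p = 4e-04). MCM5 was at 11.59, 11.56, 10.64 and 10.47 in NoRx.F and at 9.95, 9.88 and 8.92 in Tac.Mtx.F, in the same order of animals, a difference of -1.53 ± 0.31 (adjusted p = 0.000721). In both genes R.19 was the lowest and the groups did not overlap. MCM3 had a difference of -1.77 ± 0.38 (adjusted p = 0.00212) and MCM2 of -1.57 ± 0.33 (adjusted p = 0.00157), both without overlap. The cyclin CCNE1, which starts S phase, had a difference of -1.09 ± 0.28 (adjusted p = 0.00995). CDC45, a further helicase component, had one of -1.11 ± 0.30 (adjusted p = 0.0166), although R.21 at 7.68 lay above R.53 at 7.59 and R.51 at 7.51. The standard deviation of MCM4 was 0.99 in Tac.Mtx.F and 0.85 in NoRx.F, against 0.27 in healthy animals. For CDC45 it was 0.54, 0.96 and 0.24. The standard errors of MCM4 and CDC45, pooled over all arrays, therefore reflect less spread than the compared groups had.

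Other probe sets limited the reading of single genes. The remaining probe sets of MCM4 had differences of -0.53 and -0.47 and those of MKI67 of -0.34 and -0.16, none past the threshold. The other probe sets of CCNB1, CENPF and MCM5 had -0.96, -0.83 and -0.19, also none past it. The calls of MCM4, MCM5 and MKI67 were lost when all probe sets of a gene were averaged. The count of 8 replication genes was 2 without R.19, 5 without R.52, 0 without R.50 and R.52 and 0 when only the 7 arrays were fitted. The list medians stayed between -1.04 and -0.32 over all settings. The mean level of the replication list, set to 0 in healthy animals, was 1.89, 1.75, 1.23 and 0.94 in NoRx.F (R.50, R.52, R.53 and R.51). In Tac.Mtx.F it was 1.13, 1.11 and 0.10 (R.21, R.20 and R.19). The groups overlapped, since R.21 and R.20 lay above R.51, while R.19 lay within the healthy range of -0.25 to 0.27.

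**Figure D2:**
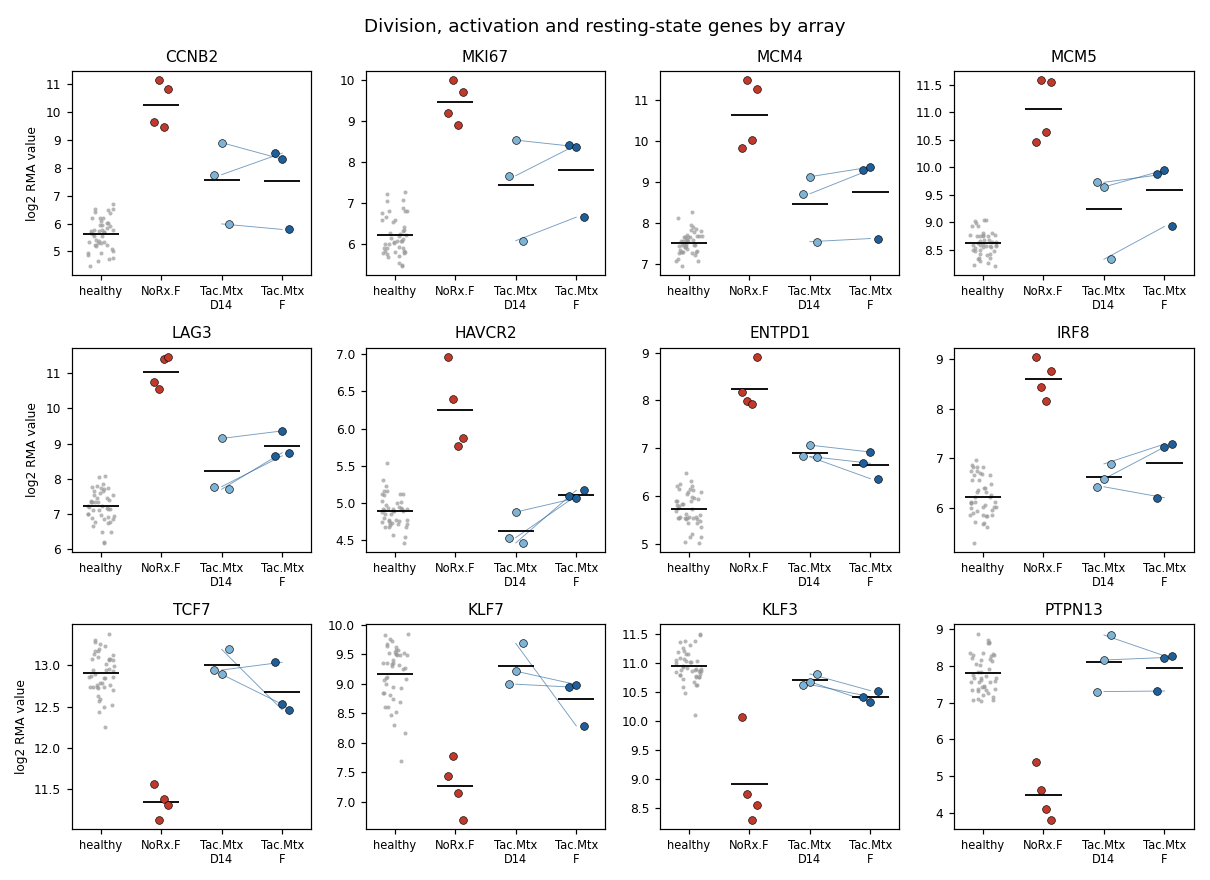
Log2 RMA values (y axis) of 12 genes in healthy animals, NoRx.F, Tac.Mtx.D14 and Tac.Mtx.F (x axis), one point per array, with a horizontal line at each group mean and thin lines joining the day 14 and late arrays of the same animal. In the panels of CCNB2 and MCM4 the Tac.Mtx.F arrays lie below every NoRx.F array, with R.19 lowest at 5.79 and 7.62, and in the panels of TCF7 and PTPN13 they lie above every NoRx.F array.

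Methotrexate acts on nucleotide supply. Of 21 measured genes of folate and nucleotide synthesis 1 rose and 2 fell, beside 4.3% and 1.96% of all genes, with a median of -0.10. CTPS1, the CTP synthase that dividing lymphocytes depend on, was 9.26 to 9.80 in NoRx.F and 8.499 to 8.90 in Tac.Mtx.F, a difference of -0.87 ± 0.24 (adjusted p = 0.0195). SHMT2, which feeds mitochondrial one-carbon units from serine, had a difference of -0.83 ± 0.24 (adjusted p = 0.0243), with overlap at R.21 (8.52) and R.53 (8.36). Its other probe set had -0.15 (adjusted p = 0.716), and the call was lost with the mean of its probe sets. GGH, the hydrolase that removes glutamates from folates and from methotrexate, was at 7.90, 8.31, 7.64 and 7.21 in NoRx.F (R.53, R.50, R.51 and R.52) and at 9.18, 8.80 and 9.13 in Tac.Mtx.F (R.21, R.20 and R.19). Its difference was 1.25 ± 0.39 (adjusted p = 0.0437) with no overlap, and the call was lost without R.19, R.20, R.21, R.51, R.52 or R.53. The other probe set of GGH had -0.06 (adjusted p = 0.866), and the call was also lost with the mean of its probe sets. TYMS, the thymidylate synthase, had -2.10 ± 0.74 on its brightest probe set (adjusted p = 0.0757) and -1.95 ± 0.54 on another, which passed (adjusted p = 0.0188). On the first, R.21 (7.35) and R.51 (7.40) nearly met and R.20 (7.85) lay above R.51. The number of genes that fell was 0 without R.19, 1 without R.21, R.50 or R.52 and 5 without R.53.

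Energy and protein turnover genes moved little and mostly downwards. Of 18 measured glycolysis genes 2 fell, beside 1.96% of all genes, with a median of -0.23. ENO1, the enolase, was 13.30 to 13.76 in NoRx.F and 12.76 to 12.92 in Tac.Mtx.F, a difference of -0.60 ± 0.11 (adjusted p = 0.000435). LDHA, which turns pyruvate into lactate, was 13.08 to 13.67 against 12.63 to 12.83, a difference of -0.65 ± 0.18 (adjusted p = 0.0209). Neither overlapped, and LDHA lost its call without R.19, R.21 or R.50, which left 1 glycolysis gene. ENO1 lost its call with the mean of its probe sets. Without R.50 and R.52 the glycolysis median was -0.01 and 1 gene fell.

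Of 21 proteasome genes 20 had a difference below 0, but only PSMB10, an immunoproteasome subunit (-0.81 ± 0.23, adjusted p = 0.0271), and PSMB6, a catalytic core subunit (-0.55 ± 0.15, adjusted p = 0.0195), fell, and the list median was -0.33. The proteasome list level was 0.49 to 1.01 in NoRx.F and 0.27 to 0.50 in Tac.Mtx.F, so the groups overlapped at R.51 and R.21. The count of 2 stood beside 1.96% of all genes that fell. It was 0 without R.19 or R.52, 1 without R.20, R.21 or R.50, 4 without R.53 and 5 without R.51. It was also 0 without both R.50 and R.52 and 1 when only the 7 arrays were fitted.

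Of 26 respiratory chain genes 25 had a difference below 0, with a median of -0.27. ATP5MC3, an ATP synthase subunit (-0.58 ± 0.14, adjusted p = 0.00593), NDUFS1 (-0.48 ± 0.15, adjusted p = 0.0413) and NDUFS6 (-0.43 ± 0.13, adjusted p = 0.0399), both of complex I, fell. NDUFV2, a further subunit of complex I, rose by 1.02 ± 0.27 (adjusted p = 0.0136), while its other probe set had -0.11. A second probe set of NDUFS6 rose by 0.82 (adjusted p = 0.00663), so its probe sets gave opposite directions. The 3 falls and 1 rise stood beside 1.96% and 4.3% of all genes. The 3 falling genes became 1 without R.19, R.20, R.21 or R.52 and 5 without R.51 or R.53, and NDUFV2 lost its call without R.21. The number of falling genes was 0 without both R.50 and R.52 and 0 when only the 7 arrays were fitted. The respiratory chain list level was 0.28 to 0.82 in NoRx.F and 0.17 to 0.41 in Tac.Mtx.F, so the groups overlapped.

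**Figure D3:**
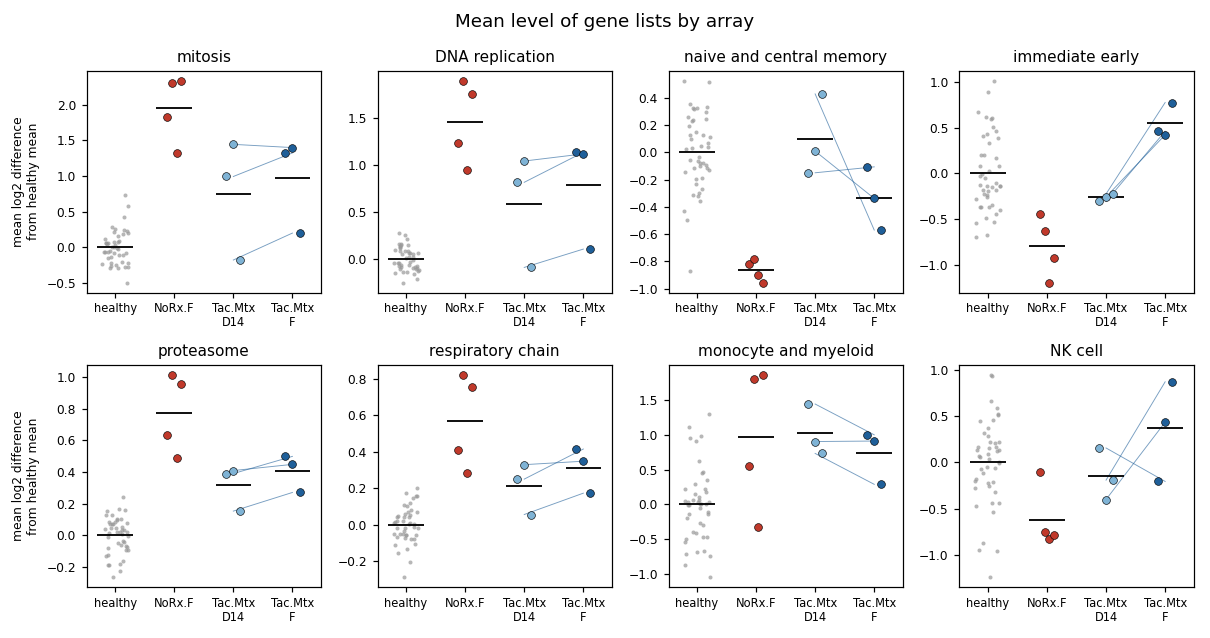
Mean log2 level of 8 gene lists per array relative to the mean of healthy animals (y axis) in healthy animals, NoRx.F, Tac.Mtx.D14 and Tac.Mtx.F (x axis), one point per array. For mitosis the NoRx.F arrays lie between 1.32 and 2.34 and the Tac.Mtx.F arrays between 0.20 and 1.40, and for the immediate early list every Tac.Mtx.F array lies above 0 and every NoRx.F array below it.

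Of 21 measured genes of the calcineurin and NFAT pathway, the target of tacrolimus, 1 rose and 0 fell, a count near the 4.3% of all genes that rose. Differences ran from -0.52 to 1.24 with a median of 0.21. The rising gene was STIM2, the sensor of calcium in the endoplasmic reticulum that opens store-operated channels. STIM2 was at 9.18, 9.01, 8.84 and 8.94 in NoRx.F (R.53, R.50, R.51 and R.52) and at 10.33, 10.01 and 9.998 in Tac.Mtx.F (R.21, R.20 and R.19), a difference of 1.24 ± 0.21 (adjusted p = 6.93e-05). The groups were tight and did not overlap, a second probe set rose by 1.13 (adjusted p = 0.00507), the remaining one had 0.53, and the call held under every alternative tried. NFATC1, an NFAT factor that NFAT itself induces, had 0.16 ± 0.28 (adjusted p = 0.811), and RCAN1, the calcineurin inhibitor that calcineurin activity induces, had 0.35 ± 0.33 (adjusted p = 0.608). The count was 2 without R.51 and 3 without R.53. The calcineurin subunit PPP3CA and the tacrolimus-binding protein FKBP1A had no probe set that could be used.

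Genes that T cell activation is known to induce went both ways. Of 21 measured genes 3 rose (CD69, CD40LG and IL2) and 2 fell (IRF8 and IL2RA), beside 4.3% and 1.96% of all genes. The median was 0.21. IRF8, a transcription factor that is raised in activated effector T cells and abundant in myeloid and B cells, was at 9.04, 8.44, 8.16 and 8.76 in NoRx.F (R.53, R.50, R.51 and R.52) and at 6.20, 7.22 and 7.28 in Tac.Mtx.F (R.21, R.20 and R.19). The difference was -1.90 ± 0.44 (adjusted p = 0.00457) with no overlap, and R.21 was lowest. Without R.21 the call was lost. IL2RA, the alpha chain of the interleukin 2 receptor, had -1.17 ± 0.31 (adjusted p = 0.0161), but R.21 at 7.17 lay above R.53 at 7.02 and R.51 at 6.82. Its call was lost without R.19, R.20 or R.50.

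CD69, an early activation and retention receptor, was at 10.94, 11.65, 10.14 and 10.15 in NoRx.F (R.53, R.50, R.51 and R.52) and at 12.36, 12.69 and 13.05 in Tac.Mtx.F (R.21, R.20 and R.19), a rise of 2.03 ± 0.52 (adjusted p = 0.0107). CD40LG, the CD40 ligand through which helper T cells act on B cells and dendritic cells, was at 8.60, 7.88, 7.54 and 7.55 in NoRx.F and at 9.05, 9.53 and 9.41 in Tac.Mtx.F, in the same order of animals, a rise of 1.34 ± 0.34 (adjusted p = 0.0104). Both genes separated the groups. The other probe sets of CD69 had 1.97 and 2.07 and those of CD40LG 0.78 and 1.22, none past the threshold. CD40LG lost its call with the mean of its probe sets. IL2, the T cell growth factor, rose by 0.55 ± 0.18 on one probe set (adjusted p = 0.049), while its other probe set had 0.14 (adjusted p = 0.888), and the call was lost without any one array except R.53. IFNG, the effector cytokine, had 0.95 ± 0.81 (adjusted p = 0.555), and TNFRSF4, the costimulatory receptor OX40, had 0.50 ± 0.29 (adjusted p = 0.319). The 3 rises became 1 without R.19 and 1 without R.50 and R.52, and the 2 falls became 1 without R.19, R.20, R.21 or R.50.

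Immediate early genes are transcribed within minutes of a stimulus. Of 14 measured members 5 rose and 0 fell, beside 4.3% of all genes that rose, and the median was 1.00. The 5 include CD69, already counted among the activation genes. For 8 of the 14 every Tac.Mtx.F array lay above every NoRx.F array, beside 11.8% of all genes. FOS, a subunit of the AP-1 transcription factor, had the largest rise of all named genes. It was at 8.30, 7.69, 6.38 and 7.35 in NoRx.F (R.53, R.50, R.51 and R.52) and at 11.94, 12.88 and 13.49 in Tac.Mtx.F (R.21, R.20 and R.19), a difference of 5.42 ± 1.45 (adjusted p = 0.0155). The gap between the groups was wide, and the healthy animals, from 6.73 through a median of 8.69 to 13.99, spanned both. DUSP1, a phosphatase that switches off MAP kinases, was at 10.16, 9.79, 8.03 and 9.42 in NoRx.F and at 12.41, 12.54 and 13.43 in Tac.Mtx.F, in the same order of animals, a difference of 3.44 ± 0.86 (adjusted p = 0.0095). A second probe set of DUSP1 had 1.58 (adjusted p = 0.187). JUNB, an AP-1 partner, was at 7.54, 7.73, 6.74 and 7.18 in NoRx.F and at 9.79, 9.53 and 10.003 in Tac.Mtx.F, a difference of 2.56 ± 0.51 (adjusted p = 0.000728). JUNB kept its call under every alternative. IER2, an early response gene, rose by 1.12 ± 0.35 (adjusted p = 0.0428), a call that was lost without any one array except R.53. RGS1, a regulator of G protein signalling induced on T cell activation, is not a list member and rose by 2.96 ± 0.74 (adjusted p = 0.00863).

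The day 14 arrays of the same animals held lower FOS values than the late ones. FOS was at 9.44, 7.48 and 8.25 on day 14 (R.21, R.20 and R.19), a difference of 1.04 from NoRx.F (adjusted p = 0.717), and the immediate early list level was -0.31 to -0.23 on day 14, 0.42 to 0.77 in Tac.Mtx.F and -1.20 to -0.44 in NoRx.F. Of the 14 genes 0 rose and 1 fell on day 14, beside 7.29% and 5.63% of all genes, with a median of 0.61. Healthy animals covered -0.69 to 1.01, so the level of the Tac.Mtx.F arrays lay inside the healthy range and that of R.51 and R.52 below it. The late minus day 14 difference of FOS, 4.38, did not pass (adjusted p = 0.641, and 0.363 with the animal as a block in the 6 arrays), although FOS was higher late in each of the 3 animals, by 2.499 in R.21, 5.40 in R.20 and 5.24 in R.19. DUSP1 was higher late by 2.17, 2.45 and 2.43 (R.21, R.20 and R.19; adjusted p = 0.0999 with the animal as a block). The count of 5 was 1 without R.19, when FOS, DUSP1, CD69 and IER2 lost their calls. RGS1, which is not on the list, lost its call there too. The count was also 1 with the immediate early level of each array as a covariate. That level is the mean of these same 14 genes, so the covariate removes part of their difference by construction.

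**Figure D4:**
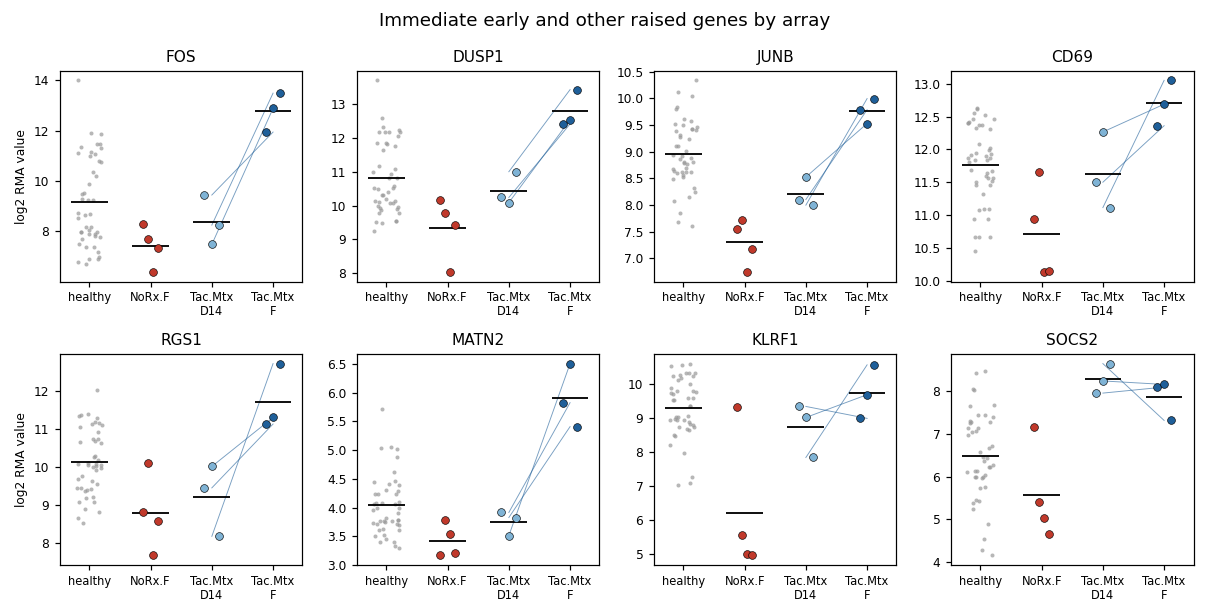
Log2 RMA values (y axis) of 8 genes in healthy animals, NoRx.F, Tac.Mtx.D14 and Tac.Mtx.F (x axis), one point per array, with a horizontal line at each group mean and thin lines joining the arrays of the same animal. FOS, DUSP1 and JUNB are higher in the 3 Tac.Mtx.F arrays than in any NoRx.F array, and FOS in healthy animals runs from 6.73 to 13.99.

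Receptors that restrain or support T cell responses changed in both directions: of 17 measured, 2 rose and 3 fell, beside 4.3% and 1.96% of all genes. The median was 0.44, and it was 0.11 without R.19 and 0.24 with batch as a random block. LAG3, an inhibitory receptor for MHC class II that is raised on activated and exhausted T cells, was at 10.75, 10.54, 11.40 and 11.46 in NoRx.F (R.53, R.50, R.51 and R.52) and at 8.65, 9.36 and 8.74 in Tac.Mtx.F (R.21, R.20 and R.19). The difference was -2.24 ± 0.52 (adjusted p = 0.00438), the groups did not overlap, and the call held under every alternative tried. All 7 arrays were above the healthy range of 6.18 to 8.07. HAVCR2, the inhibitory receptor TIM-3, was at 6.97, 6.40, 5.77 and 5.88 in NoRx.F and at 5.09, 5.06 and 5.17 in Tac.Mtx.F, in the same order of animals, a difference of -1.21 ± 0.28 (adjusted p = 0.00436). Its Tac.Mtx.F values lay below the 5.21 at which a probe set was counted as measurable. ENTPD1, the ectonucleotidase CD39 of activated and regulatory T cells, was at 8.17, 7.98, 7.92 and 8.91 in NoRx.F and at 6.68, 6.92 and 6.36 in Tac.Mtx.F, a difference of -1.56 ± 0.42 (adjusted p = 0.0165).

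The rising receptor list members were CD40LG and TOX, a nuclear factor best known for sustaining exhausted T cells. TOX was at 9.11, 8.98, 8.16 and 8.63 in NoRx.F (R.53, R.50, R.51 and R.52) and at 9.81, 9.80 and 10.29 in Tac.Mtx.F (R.21, R.20 and R.19), a rise of 1.11 ± 0.29 (adjusted p = 0.0117), opposite to LAG3, HAVCR2 and ENTPD1. CTLA4, the inhibitory receptor that competes with CD28, had -0.45 ± 0.52 (adjusted p = 0.689). The number of rises was 1 without R.19 and 1 without R.50 and R.52, ENTPD1 lost its call without R.19 or R.52, and TOX lost its call without R.19 or R.51.

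Of 14 regulatory T cell genes 2 fell, beside 1.96% of all genes, and the median was -0.18. They were the ENTPD1 and IL2RA already given, which are shared with activated T cells. FOXP3, the defining factor of regulatory T cells, had 0.07 ± 0.21 (adjusted p = 0.901), at values of 4.78 to 5.57 around the limit of measurable signal. The count was 0 without R.19 and 1 without R.20, R.50 or R.52.

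Of 11 measured genes of the resting and central memory state 3 rose, 0 fell and 8 did not pass, beside 4.3% of all genes that rose and 1.96% that fell. Differences ran from -1.27 to 1.55 with a median of 0.50. TCF7, the transcription factor TCF-1 that maintains naive and stem-like memory T cells, was at 11.56, 11.13, 11.38 and 11.31 in NoRx.F (R.53, R.50, R.51 and R.52) and at 13.04, 12.53 and 12.46 in Tac.Mtx.F (R.21, R.20 and R.19). Its difference was 1.36 ± 0.27 (adjusted p = 0.000721), and a second probe set rose by 1.44 (adjusted p = 0.0127), while the remaining one had 0.11. The groups were well apart, and the Tac.Mtx.F values lay within the healthy range of 12.26 to 13.38 while the NoRx.F values lay below it. KLF7, a Krüppel-like factor, was at 7.44, 7.77, 7.14 and 6.69 in NoRx.F and at 8.94, 8.98 and 8.28 in Tac.Mtx.F, a rise of 1.55 ± 0.41 (adjusted p = 0.0151). Its other probe sets had 0.65 (adjusted p = 0.428) and 0.15 (adjusted p = 0.765), and the call was lost with the mean of all its probe sets. KLF3, a related repressor of transcription, was at 10.06, 8.73, 8.29 and 8.54 in NoRx.F and at 10.41, 10.32 and 10.52 in Tac.Mtx.F, a rise of 1.42 ± 0.32 (adjusted p = 0.00364) that 3 of its 5 probe sets shared. R.53, the NoRx.F animal sampled latest, was the closest to Tac.Mtx.F for KLF3. CCR7, the lymph node homing receptor, had 0.91 ± 0.54 (adjusted p = 0.348), and R.19 at 8.72 lay below R.51 at 9.13. LEF1 and S1PR1 had no probe set that could be used. The count of 3 was 1 without R.50 and R.52, and KLF7 also lost its call without R.20, R.21 or R.52.

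Cytotoxic and homing genes gave no call. None of 19 cytotoxic effector genes passed, with a median of -0.36 that was 0.01 without R.21 and also with batch as a random block, and -0.61 without R.19. The list level was 0.33 to 0.72 in NoRx.F and -0.23, 0.67 and 1.08 in Tac.Mtx.F (R.21, R.20 and R.19), so the Tac.Mtx.F arrays lay on both sides of NoRx.F. GZMB, the granzyme that triggers apoptosis of target cells, was at 14.02, 14.45, 14.48 and 14.68 in NoRx.F (R.53, R.50, R.51 and R.52) and at 12.81, 13.51 and 13.58 in Tac.Mtx.F (R.21, R.20 and R.19). Its arrays did not overlap, but the difference of -1.26 ± 0.53 did not pass (adjusted p = 0.155). GNLY, the granule protein granulysin, was 13.70 to 14.61 against 11.95 to 13.65, again without overlap, with a difference of -1.13 ± 0.63 (adjusted p = 0.305). Of 18 homing and egress genes none passed, with a median of -0.04. CXCR3, the receptor that guides type 1 effector cells into inflamed tissue, was 8.93 to 9.78 against 8.51 to 8.93 with a difference of -0.87 ± 0.32 (adjusted p = 0.0928).

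Helper lineage genes held 1 call among 16, a fall, beside 1.96% of all genes that fell, with a median of -0.04. IL17F, a cytokine of Th17 cells, fell by 0.73 ± 0.19 on the log2 scale (adjusted p = 0.0148), from 5.44 to 6.02 in NoRx.F to 4.90 to 5.23 in Tac.Mtx.F, and its other 2 probe sets fell by 1.90 and 1.98. The Tac.Mtx.F values of the first probe set lay near the 5.21 of measurable signal, and its call was lost without R.19, R.21 or R.52.

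No interferon-stimulated gene passed the test among 20 measured, and the median was -0.01. ISG15, a ubiquitin-like protein induced by interferon, had -0.56 ± 0.58 (adjusted p = 0.651), and IFI27, a further interferon target, had -1.23 ± 0.83 (adjusted p = 0.422). The interferon list level was 0.61 to 1.61 in NoRx.F and 0.75 to 1.57 in Tac.Mtx.F, so both groups covered the same range above the healthy mean.

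Among 16 cytokine signalling genes 1 rose, beside 4.3% of all genes, with a median of 0.31. IL6R, the interleukin 6 receptor, was 6.73 to 8.24 in NoRx.F and 9.14 to 9.81 in Tac.Mtx.F, a rise of 1.77 ± 0.43 (adjusted p = 0.00712). Its other probe set had 0.74 (adjusted p = 0.458), and the call was lost with the mean of its probe sets. SOCS2, a feedback inhibitor induced by STAT5, was at 7.16, 5.41, 5.03 and 4.66 in NoRx.F (R.53, R.50, R.51 and R.52) and at 8.10, 8.16 and 7.32 in Tac.Mtx.F (R.21, R.20 and R.19). SOCS2 did not overlap between the groups, with R.53 the nearest to Tac.Mtx.F, but its difference of 2.47 ± 0.80 just missed the threshold (adjusted p = 0.0519). Of 18 p53 targets 1 rose, beside the same 4.3% of all genes. SESN1, a stress-induced brake on mTORC1, rose by 1.48 ± 0.36 (adjusted p = 0.00681). Its values were 6.58 to 8.59 in NoRx.F and 8.59 to 9.25 in Tac.Mtx.F, with R.53 of NoRx.F and R.19 of Tac.Mtx.F meeting at 8.59. Without R.53 the count was 3 for cytokine signalling and 2 for p53 targets. IL6R and SESN1 lost their calls without R.50 and R.52. None of 14 sterol synthesis genes passed, with a median of -0.04.

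Markers of other blood cells were measured beside these results. Among 9 core T cell genes 1 rose, beside 4.3% of all genes. It was the receptor-associated adaptor TRAT1, which rose by 1.42 ± 0.32 (adjusted p = 0.00298), from 9.21 to 10.62 in NoRx.F to 11.16 to 11.70 in Tac.Mtx.F. The coreceptors CD8A (-0.42 ± 0.23, adjusted p = 0.313) and CD4 (0.32 ± 0.29, adjusted p = 0.579) did not pass. Among 13 monocyte and myeloid genes none passed, the list median was -0.39 (0.73 without R.50 and R.52), and the list level was -0.33 to 1.85 in NoRx.F and 0.29 to 1.00 in Tac.Mtx.F. S100A8, an abundant protein of monocytes and neutrophils, was at 10.10, 13.62, 8.26 and 14.31 in NoRx.F (R.53, R.50, R.51 and R.52) and at 10.33, 10.96 and 9.06 in Tac.Mtx.F (R.21, R.20 and R.19), a difference of -1.07 ± 1.43 (adjusted p = 0.739). R.50 and R.52 stood far above R.51 and R.53.

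Of 7 NK cell genes 1 rose, beside 4.3% of all genes. The list median of 0.99 ran from 0.19 (without R.20) to 1.45 (without R.21), and was 0.56 without R.19 and 0.53 without R.51. The list level was -0.83 to -0.11 in NoRx.F and -0.21 to 0.87 in Tac.Mtx.F. The rising gene was KLRF1, the activating receptor NKp80 of NK cells and some CD8 T cells. It was at 9.32, 5.57, 5.00 and 4.95 in NoRx.F (R.53, R.50, R.51 and R.52) and at 8.99, 9.69 and 10.57 in Tac.Mtx.F (R.21, R.20 and R.19), a difference of 3.03 ± 0.94 (adjusted p = 0.0403). R.53 lay within the Tac.Mtx.F values, the other 3 NoRx.F arrays far below them and below the healthy range of 7.02 to 10.61. The call was lost without any one array except R.53. Of 5 plasma cell genes 1 fell, beside 1.96% of all genes. MZB1, an endoplasmic reticulum protein of B and plasma cells, fell by 1.23 ± 0.26 on the log2 scale (adjusted p = 0.00119). It was at 5.64, 7.12, 6.79 and 6.91 in NoRx.F (R.53, R.50, R.51 and R.52) and at 5.19, 5.54 and 5.58 in Tac.Mtx.F (R.21, R.20 and R.19). The Tac.Mtx.F values of MZB1 lay near the 5.21 of measurable signal, and R.53 lay close to them. The plasma cell list level was 0.12 to 0.54 in NoRx.F and -0.25 to -0.03 in Tac.Mtx.F. None of 8 B cell genes (level -0.10 to 0.10 against -0.08 to 0.14), 8 neutrophil and granulocyte genes (0.06 to 0.27 against 0.12 to 0.65), 5 erythroid genes (0.11 to 0.39 against -0.12 to 1.35) or 7 platelet genes (-0.13 to 1.24 against -0.71 to 1.70) passed. The part of any of these cell types in the other gene groups was not tested, apart from a fit with the myeloid level as a covariate, which gave 1778 probe sets. Without R.50 and R.52 MZB1 lost its call.

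Among the 10 largest rises and 10 largest falls, several genes lay outside the lists. PTPN13, a large non-receptor tyrosine phosphatase, was at 5.39, 4.63, 4.13 and 3.83 in NoRx.F (R.53, R.50, R.51 and R.52) and at 7.31, 8.22 and 8.26 in Tac.Mtx.F (R.21, R.20 and R.19), a rise of 3.30 ± 0.49 (adjusted p = 5.61e-06). The healthy range of 7.05 to 8.86 held all Tac.Mtx.F values and no NoRx.F value. For PTPN13 and ADAM12 in 3 of 4 NoRx.F arrays, and for JAKMIP2 and MATN2 in all 4, the signal was below the 5.21 used as the limit of measurable signal, so the size of these differences is against a level near background. ADAM12, a metalloprotease of the cell surface, rose by 2.84 ± 0.67 (adjusted p = 0.00554). Both of its other probe sets also rose, from NoRx.F means of 3.86 and 3.96, below that limit too. PPP2R2B, a regulatory subunit of protein phosphatase 2A, rose by 2.81 ± 0.69 (adjusted p = 0.00782), from 5.47 to 6.25 in NoRx.F to 7.70 to 9.86 in Tac.Mtx.F. JAKMIP2, a protein that binds Janus kinases and microtubules, was 4.76 to 5.01 in NoRx.F and 6.77 to 7.91 in Tac.Mtx.F, a rise of 2.59 ± 0.65 (adjusted p = 0.00953). PPP2R2B and JAKMIP2 lost their calls without R.19.

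MATN2, an extracellular matrix protein, was at 3.17, 3.78, 3.54 and 3.20 in NoRx.F (R.53, R.50, R.51 and R.52) and at 5.82, 6.50 and 5.41 in Tac.Mtx.F (R.21, R.20 and R.19), a rise of 2.72 ± 0.66 (adjusted p = 0.00644). Healthy animals had 3.29 to 5.72 and the day 14 arrays 3.51 to 3.91, and the late minus day 14 difference of 2.16 did not pass (adjusted p = 0.534). Of the genes that fell, ACKR1, an atypical chemokine receptor, had -2.64 ± 0.62 (adjusted p = 0.00499), with 0.04 on its other probe set. SERPINE2, an inhibitor of serine proteases, had -2.34 ± 0.75 (adjusted p = 0.0472), with -2.42 to -2.01 on 3 other probe sets that did not pass. GSAP, a protein that regulates gamma-secretase, was 9.48 to 10.02 in NoRx.F and 7.75 to 8.17 in Tac.Mtx.F, a fall of -1.87 ± 0.46 (adjusted p = 0.00824). GPATCH2, a nuclear protein with a G-patch domain, had -2.18 ± 0.46 (adjusted p = 0.00161), but its other 4 probe sets ran from -0.14 to 0.53 and none passed. ACKR1 lost its call without R.19 and SERPINE2 without R.19, R.20, R.21, R.51, R.52 or R.53, while PTPN13 and GSAP kept theirs under each of 24 alternatives and MATN2 under the 23 that gave it a value, all but the stricter filter.

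The day 14 arrays of the same 3 recipients lie closer in time to the NoRx.F arrays of days 6 to 12. They were set against the same NoRx.F arrays, so the day 14 and late comparisons share their controls, and their values stand side by side without a test of likeness. On day 14, 3209 probe sets (10.1%) passed, 1861 higher (5.87%) and 1348 lower (4.25%), and 1384 genes (12.9%), 781 higher (7.29%) and 603 lower (5.63%). Of the 23 mitosis genes 15 fell (median -1.42), of the 27 replication genes 11 (median -0.90) and of the 19 cytotoxic genes 3 (median -1.04), while 6 of the 11 resting and central memory genes rose (median 0.99). LAG3 was at 7.78, 9.15 and 7.70 on day 14 (R.21, R.20 and R.19), a difference of -2.95 (adjusted p = 4.33e-05), beside -2.24 late. CCR7 had 1.77 on day 14 (adjusted p = 0.0232), beside 0.91 late. GNLY had -2.004 on day 14 (adjusted p = 0.0267) and CXCR3 -1.51 (adjusted p = 0.000769), and neither passed late. SOCS2 had 2.90 (adjusted p = 0.0112).

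Between the late and the day 14 arrays of these animals, which share a batch, 2 of 31710 probe sets passed (0.00631%), both lower late (0.00631%), and 0 were higher (0%) in limma. At an unadjusted p of 0.05, 738 were higher and 1127 lower. One of the 2 was BBC3, the p53-induced death gene PUMA, chosen after its value was seen. BBC3 fell from 8.73, 9.46 and 9.78 on day 14 (R.21, R.20 and R.19) to 8.16, 8.20 and 8.27 late, a difference of -1.11 ± 0.21 (adjusted p = 0.0259). The other probe set, with a difference of -2.23 ± 0.43, has no single gene assigned. This fit has no term for the animal. With the animal as a random block 4 probe sets passed, and with the animal as a fixed block in the 6 arrays alone 0 passed, with 1536 higher and 2256 lower at an unadjusted p of 0.05, where BBC3 had an adjusted p of 0.363. Both blocked fits were added after the values were seen.

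**Figure D5:**
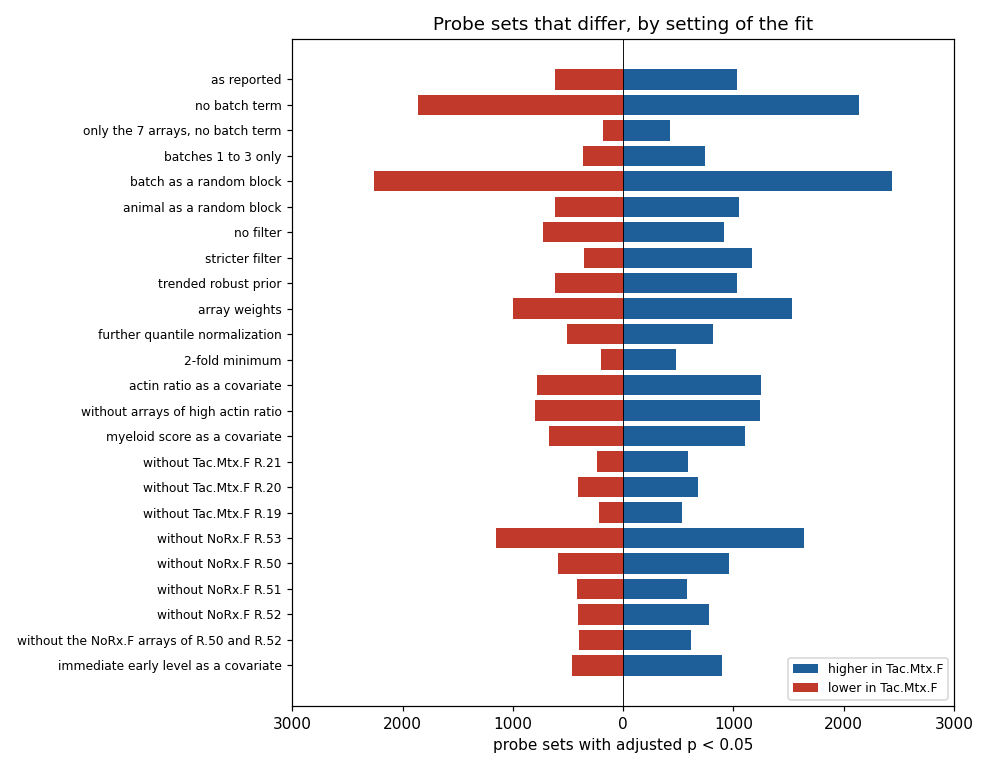
Number of probe sets past the adjusted threshold (x axis, higher in Tac.Mtx.F to the right and lower to the left of 0) under each analysis setting (y axis). The total is 1644 as reported and lowest, 602, when only the 7 arrays were fitted with no batch term; without batch in the full fit it is 3997.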

How the data were processed

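The authors deposited a single table of log2 signal intensities of 52865 probe sets in 102 arrays, made with RMA in the affy package per the submitters' processing notes; versions are not given in the sources used here. In healthy arrays 0.274% of probe sets had a batch p under 0.05 and 24.9% one above 0.95, so the values may already have been adjusted for batch.

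Control probe sets (99) were removed and 31710 kept with a value of at least 5.21, the overall median, on 3 or more arrays. The platform annotation pairs 24969 probe sets with 1 gene, 361 with several and 27535 with none; 24629 were found in the RefSeq gene table of T2T-MMU8v2.0. A gene was represented by its brightest single-gene probe set. All 16 groups (101 arrays, the 2 of healthy animal R.201 averaged) were fitted with limma 3.58.1 in R 4.3.3 (data.table package 1.17.8, statmod 1.5.0), with the 6 labelled batches as a factor, 80 residual and 3.38 prior degrees of freedom, and Benjamini-Hochberg adjustment over all probe sets at 0.05. The fitted difference and that of the group means had the same sign for 671 of 671 called genes. The script was tested on simulated data.

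Gene lists (27, with 392 of 548 genes measured; a gene may be in several) cover 19 programmes and 8 cell types. Named genes are the 10 largest rises and falls, a fixed set, and up to 6 called members of each list. Members and lists were chosen with earlier results of these data known. Alternatives varied the batch term, arrays, filter, normalization, weights and covariates, and left out each array. Genes of antigen receptors, MHC and KIR, whose copies are alike, were not named.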

Additional observations from a re-analysis of the deposited data

Results flagged for a closer look

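Some values stood apart from the rest of their group of 4 NoRx.F arrays, and are given without an explanation. KLRF1 was 9.32 in R.53 and 4.95 to 5.57 in the other NoRx.F arrays, and the NK cell list level was -0.11 in R.53 and -0.83 to -0.76 in the others. GPATCH2 was lowest in R.53, at 11.71 against 12.49 to 12.64. FOXP3 was highest in R.51, at 5.57 against 4.78 to 4.91, and CENPA was lowest in R.51, at 7.43 against 8.05 to 8.15. A gap of this size arises by chance in about 5% of groups, and 78 genes and 27 lists were examined.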

How the results depend on the processing

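No probe set called in both the reported fit and an alternative had opposite signs in them. The count of 1644 probe sets became 3997 with no batch term, 602 with only the 7 arrays, 4696 with batch as a random block, 2537 with array weights, 677 with a 2-fold minimum, and, in an alternative chosen after seeing the data, 1009 without R.50 and R.52. Leaving out each array gave 754 to 2798. The share that was higher, 62.6%, became 51.9% with the random block and 76.7% with the stricter filter, and was 58 to 71.5% with single arrays left out. The day 14 count of 3209 became 5977 with no batch term and 1419 to 4248 with single arrays left out. The late minus day 14 count of 2 became 4 with the animal as a random block and 0 with it as a fixed block in 6 arrays, both added after seeing the data. Over 78 named genes, 1609 of 1866 values kept their direction and their side of the threshold, 218 lost the call, 21 gained it and 18 turned in direction; the cause was not tested. All that turned were uncalled genes, except NDUFS6 (0.37 with the mean of its probe sets). FOXP3 became -0.01 with the random block and -0.12 without R.50 and R.52, and ran from -0.03 to 0.23 with single arrays left out (-0.03 without R.21, -0.01 without R.53 or R.50). PF4, the platelet factor, with -0.16 ± 1.24 as reported, became 0.40 with array weights and 0.11 with the mean of probe sets, and ran from -0.90 to 0.79 (0.79 without R.21, 0.70 without R.53). NFATC1 became -0.04 with the mean of probe sets and ran from -0.09 (without R.21) to 0.31. The B cell gene MS4A1 (-0.15 ± 0.77) ran from -0.61 to 0.14 (0.14 without R.21, 0.01 without R.20). Without R.50 and R.52, CTLA4 became 0.21, S100A8 1.21 and S100A9 1.25. IFNG became -0.56 with the immediate early level as a covariate, also an added alternative. No paired analysis was possible because Tac.Mtx.F and NoRx.F hold different animals and the labels give them no shared numbers. Sets of 3 and 4 animals, with no batch or day in common, limit every comparison.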

Other observations

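The following genes and families were chosen after their values were seen, and are described without a test of the choice. TXNIP, which limits glucose uptake, was at 12.13, 11.88, 10.96 and 11.51 in NoRx.F (R.53, R.50, R.51 and R.52) and at 13.10, 12.70 and 13.36 in Tac.Mtx.F (R.21, R.20 and R.19), a difference of 1.49 ± 0.27 (limma adjusted p = 0.000228). CDKN1B, the cell cycle inhibitor p27, rose by 1.18 ± 0.22 (adjusted p = 0.000231), and TGFBR1, a receptor for TGF-beta, by 1.49 ± 0.22 (adjusted p = 3.4e-06). NR3C1, the glucocorticoid receptor, rose by 1.03 ± 0.31 (adjusted p = 0.0362) and its target TSC22D3 by 1.19 ± 0.27 (adjusted p = 0.00368), the latter with overlapping arrays. RUNX1, a transcription factor of T cell development, rose by 1.62 ± 0.22 (adjusted p = 4.41e-07), and JAZF1, a zinc finger cofactor, by 2.25 ± 0.28 (adjusted p = 4.53e-08). The cytokine genes IL7 (2.54 ± 0.68, adjusted p = 0.0165) and IL15 (1.46 ± 0.36, adjusted p = 0.00873) rose without overlap between the groups.

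Among the genes that fell were PHGDH, the first enzyme of serine synthesis (-1.38 ± 0.37, adjusted p = 0.0162), and GMNN, the inhibitor of replication licensing (-1.32 ± 0.40, adjusted p = 0.0373). Of 227 ZNF genes 23 rose (10.1%) and 2 fell (0.881%), beside 4.3% and 1.96% of all genes, with a median of 0.11. Of 17 centromere protein (CENP) genes 5 fell (29.4%) and 0 rose, with a median of -0.54. The 5 include CENPA and CENPF, already given with the mitosis genes, so this family is not separate from them. Of 61 genes of mitochondrial ribosomal proteins 5 fell (8.2%) and 0 rose, with a median of -0.24.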
